A study of Mus musculus with 24 samples.

Results

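Genes of mature neutrophils were followed in CD11b+ myeloid cells that were sorted from MC38 tumours and profiled by MeRIP-seq. The 10 genes, of 54446 gene identifiers counted, were S100a8, S100a9, Lcn2, Ltf, Camp, Ngp, Mmp8, Mmp9, Retnlg and Csf3r. They were taken from a fixed list of secondary granule and late neutrophil genes, with no rule on their values. The list was chosen with earlier results of these data known. Its symbols were matched to the Ensembl identifiers of the count files. All 10 were found.

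Neutrophils make their granule proteins in order. Primary (azurophil) granule genes such as Mpo and Elane are transcribed in promyelocytes. Secondary granule genes such as Ltf, Camp, Ngp and Lcn2 follow in myelocytes and metamyelocytes under C/EBPε, and Mmp8, Mmp9 and Csf3r are used in later cells. In tumours, neutrophils and granulocytic suppressor cells carry the CD11b and Ly6G surface proteins and release S100A8 and S100A9.

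The cells came from 4 kinds of mice, each carrying MC38, a colon carcinoma line. WT mice had floxed Ythdf2 alleles and no Cre, and cKO mice had the same alleles with Cre driven by the Lyz2 promoter, which acts in monocytes, macrophages and neutrophils. Animals were male or female and 8 to 10 weeks old, and tumours were left unirradiated (Ctrl) or received 20 Gy once and were taken after 3 days (IR). Every group had 3 Input and 3 IP libraries. For m6A sequencing the methods state pools of 5 Ythdf2 f/f mice per replicate after irradiation, and pooling of the other groups is not given in the sources used here. The study's methods call these replicates technical in one place and biological in another, so the p-values below measure the spread between libraries. MeRIP-seq sequences RNA fragments bound by an antibody against m6A (IP) beside unselected fragments (Input). Levels are CPM, a gene's counts for every 1e6 of the library's gene counts, unless a sentence says per kb.

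Gene counts per library came to 65.2 to 83.7 M in the Inputs and 68.8 to 86.4 M in the IPs (M, 1e6). Itgam, which encodes CD11b and was added here only to check the sort, stood at 335 to 407 CPM in the 12 Inputs. T and NK cell, B cell and erythroid marker lists were near 0 in the Inputs, except that the 5 erythroid markers summed to 27.4 to 29.9 CPM in WT IR and to at most 0.0669 CPM in the other Input groups. Macrophage markers, 7 genes that include C1qa and Apoe, summed to 3692 to 4385 CPM, about the range of the 10 neutrophil genes in WT Ctrl (4060 to 4201 CPM). Ythdf2 gene counts went against the label, at 95.7 to 104 CPM in the WT Inputs and 175 to 234 CPM in the Inputs labelled cKO. These counts are of the whole gene and cannot show whether a floxed part of it was lost. Lyz2, whose locus carries the Cre, was at 19670 to 20890 CPM in the Inputs labelled WT and at 299 to 420.2 CPM in those labelled cKO. In the IP libraries it was at 17310 ± 362 CPM in WT Ctrl and 98.1 ± 2.77 CPM in cKO Ctrl, but 96.7 ± 1.52 CPM were measured for IPs labelled WT IR and 20830 ± 159 CPM for IPs labelled cKO IR (SD, n = 3 each). In the irradiated IP libraries Lyz2 thus went against the genotype label. They are named by label below, and their levels against other groups and against Inputs are given both with the IP group of the same label and with that of the other label. Peaks are given by label only.

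Together they made up 4131 ± 70.5 CPM of the WT Ctrl Inputs and 947 ± 24.1 CPM of those of WT IR. For the cKO label the sum was 1865 ± 13.1 CPM without and 912 ± 7.66 CPM with irradiation (SD, n = 3 each). The sum was thus highest in unirradiated WT tumours, and no library of another group came near it. The share of mitochondrial counts in the Inputs moved too, with 4.61 to 4.84% in WT Ctrl against 6.13 to 7.25% in WT IR. Under the cKO label it was 5.34 to 5.51% without and 3.39 to 3.75% with irradiation. Reads in no annotated gene made up 5.04 to 5.12% and 5.70 to 6.55% in WT, and 4.24 to 4.29% and 3.95 to 4.14% in cKO. The part of these shares in the results was not tested. Because these are bulk samples, fewer neutrophils and less RNA per neutrophil cannot be told apart.

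Per kb of exon, S100a9 was the most abundant member in every Input group, at 1978 ± 27.4 CPM per kb in WT Ctrl, and Camp the least, at 10.1 ± 0.252 CPM per kb (SD, n = 3). In WT Ctrl the order after S100a9 was S100a8 (587), Ngp (575), Ltf (221), Lcn2 (186), Mmp8 (149), Mmp9 (67.8), Csf3r (32.3) and Retnlg (21.3), all in CPM per kb. S100a8 and Ngp did not differ beyond the spread of S100a8 (SD 47.6). In WT IR, Mmp8 had moved to the second place at 128 CPM per kb, ahead of S100a8 at 110.5 ± 14.8 CPM per kb, and Ltf had dropped from the fourth place to the eighth at 12.5 CPM per kb.

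**Figure D1:**
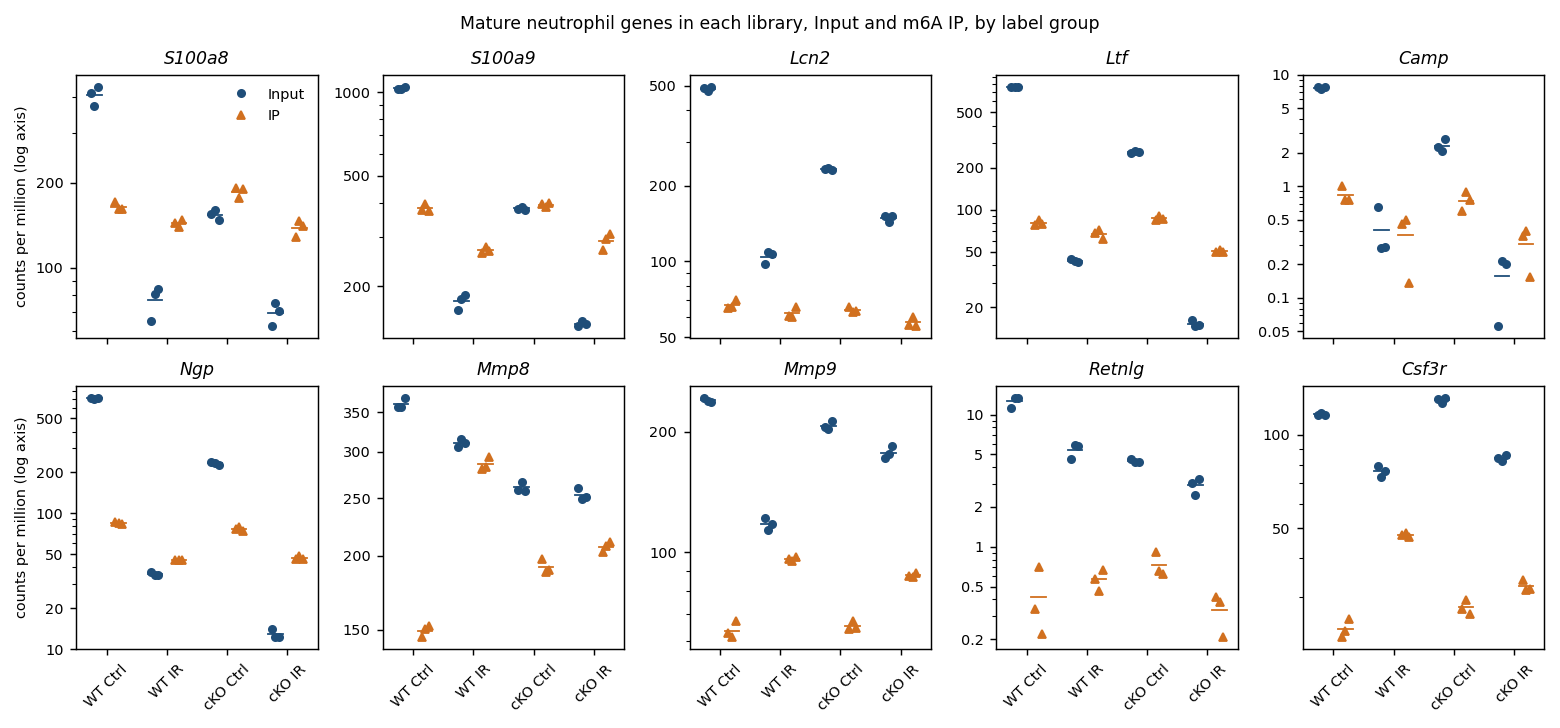
CPM of the 10 genes in each of the 24 libraries (log axis), by label group, with Input as blue circles, IP as orange triangles and group means as lines. Input levels of Ltf ran from 762.7 CPM in WT Ctrl to 15.2 CPM in cKO IR, whereas its IP levels stayed between 87.1 and 50.3 CPM.

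In the WT Inputs all 10 genes were lower after irradiation by edgeR's quasi-likelihood test at a Benjamini-Hochberg adjusted p under 0.05. Of the 16090 genes tested, 17.0% were called lower and 14.7% higher. The median log2 difference was −2.28 over the 10 genes and 0.01 over all genes tested. The size differed widely between members, from 19.1-fold for Ngp to 1.14-fold for Mmp8.

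Ltf, Ngp and Camp fell most. Ltf encodes lactoferrin, an iron-binding protein that starves microbes of iron. It stood at 760.4, 764.5 and 763.3 CPM in the WT Ctrl Inputs and at 44.5, 42.6 and 42.1 CPM in WT IR. Every irradiated library was far below every control, a fall of 17.3-fold (log2 −4.12, SE 0.04, edgeR adjusted p 1.3e-23). Ngp, the neutrophilic granule protein of the cystatin-like family, went from 707, 690.1 and 710.1 CPM to 37.2, 35.0 and 35.4 CPM (log2 −4.26, SE 0.05, edgeR adjusted p 4.9e-23). Both genes lost about the same share of their counts. Camp, the precursor of the antimicrobial cathelicidin peptide, was a rare transcript with 555, 573 and 586 counts in WT Ctrl and 43, 19 and 20 counts in WT IR. Its fall of 18.5-fold was of the same order, with a wider error (log2 −4.21, SE 0.24, edgeR adjusted p 3.9e-11).

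Lcn2 encodes lipocalin 2, which binds bacterial siderophores and is also made by macrophages and epithelia under inflammation. Its level was 490.0, 476 and 497 CPM in WT Ctrl and 97.3, 109 and 107.5 CPM in WT IR. That fall, 4.56-fold (log2 −2.19, SE 0.04, edgeR adjusted p 4.2e-19), was smaller than that of the other 3 granule genes.

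S100a8 and S100a9 encode the subunits of calprotectin, a calcium- and zinc-binding complex that signals through TLR4. S100a9 was at 1024, 1024 and 1049 CPM in WT Ctrl and at 164, 179 and 186 CPM in WT IR, a 5.73-fold fall (log2 −2.52, SE 0.04, edgeR adjusted p 2.8e-20). S100a8 fell 5.19-fold, from 371 to 436 CPM to 65.0 to 84.5 CPM (log2 −2.38, SE 0.08, edgeR adjusted p 1.1e-14). The genes lie 22.6 kb apart on chromosome 3, S100a8 at positions 90668978 to 90670035 on the plus strand and S100a9 at 90692632 to 90695721 on the minus strand (GRCm38), and both fell by a similar factor.

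Mmp8, Mmp9, Csf3r and Retnlg moved less. Mmp8, neutrophil collagenase, was at 357, 357 and 370.3 CPM in WT Ctrl and 306, 316 and 310.3 CPM in WT IR, which did not overlap although the difference was small (log2 −0.19, SE 0.03, edgeR adjusted p 8.0e-05). Mmp9, gelatinase B of the tertiary granules and of macrophages, fell 1.995-fold from 238 to 244 CPM to 114 to 122 CPM. Csf3r, the G-CSF receptor, fell 1.495-fold from 116 to 117 CPM to 73.0 to 79.4 CPM. Retnlg, a resistin-like secreted protein of granulocytes, fell 2.28-fold from 11.2 to 13.4 CPM to 4.58 to 5.87 CPM. With these unequal falls the make-up of the 10 genes shifted: Ltf, Ngp, Lcn2 and Camp held 47.5% ± 0.342 of the summed counts in WT Ctrl and 19.4% ± 0.213 in WT IR, while Mmp8 and Mmp9 went from 14.6% ± 0.0983 to 45.2% ± 1.11 (SD, n = 3).

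**Figure D2:**
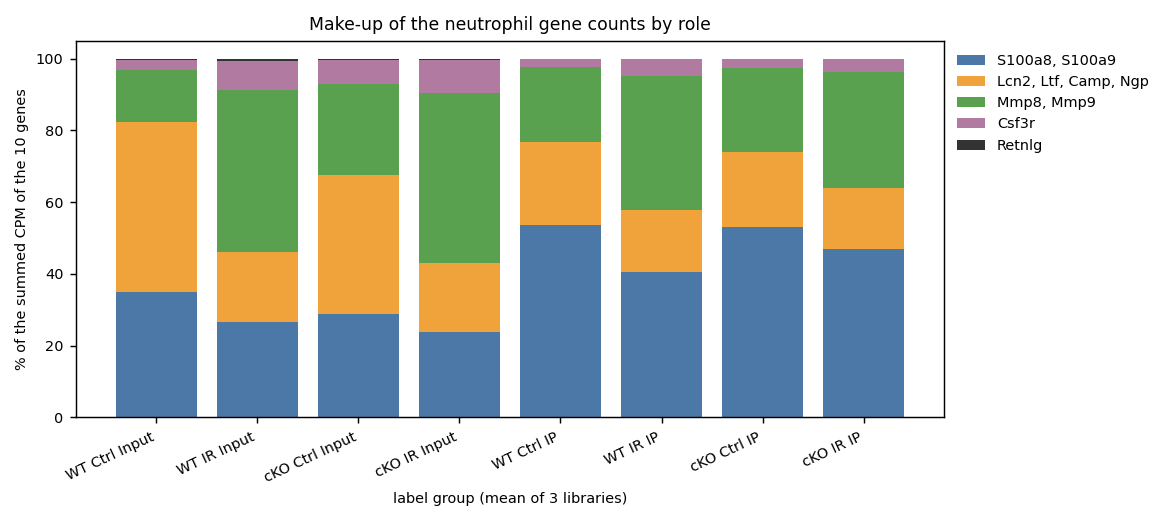
Mean share (%) of the summed CPM of the 10 genes held by each role in the 8 label groups (3 libraries each), Inputs left and IPs right. In the Inputs the share of Lcn2, Ltf, Camp and Ngp drops from 47.5% in WT Ctrl to 19.4% in WT IR, and Mmp8 and Mmp9 take 45.2% there.

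Most other genes of the same program were lower too. Of 9 other secondary and tertiary granule genes, 8 were lower and 1 higher (median log2 −1.92), led by Pglyrp1 (−2.63), a peptidoglycan-binding protein, and Cd177 (−2.56), a neutrophil surface protein. Of 18 other late neutrophil genes, 14 were lower and 2, Clec4d and Fpr1, higher (median log2 −1.97), led by Hdc (−3.60), which makes histamine, and Lrg1 (−3.31). The summed levels of these lists moved less than the medians. The other secondary and tertiary granule genes went from 4962 to 5030 CPM in WT Ctrl to 4095 to 4174 CPM in WT IR. The other late genes went from 825 to 865 CPM to 722 to 846 CPM, which overlapped. Cxcr2, the chemokine receptor that defines circulating neutrophils, went from 18.3 to 5.48 CPM, and Ly6g, the Gr-1 antigen, from 6.06 to 1.26 CPM (means, n = 3 each). All 7 primary granule genes were lower, and their summed level went from 70.9 to 79.4 CPM in WT Ctrl to 0.258 to 0.472 CPM in WT IR. Elane (2282 counts in WT Ctrl) and Ms4a3 (471 counts) had no count in the 3 WT IR Inputs. Against a floor of 3 counts over the group, Elane was at least 693-fold lower and Ms4a3 at least 143-fold lower. With these genes at their bound the median of the list was −7.16. Of the 7 granulopoiesis transcription factors 4 were lower, with Cebpe (log2 −1.91, SE 0.14) and Gfi1 (−1.67, SE 0.20) first. Among 7 tested partners of the gene products, such as the receptor of S100A8/A9 and the inhibitors of the metalloproteinases, 2 were lower and 1 higher, with Timp1 at 0.68 and Cd14 at −0.34.

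Markers of other cells moved too, some down and some up. Eosinophil markers (5 genes) summed to 22.7 to 24.03 CPM in WT Ctrl and 4.05 to 4.31 CPM in WT IR, with 4 of 5 lower, Prg2 from 11.3 to 0.0728 CPM on average and Epx at 0 in WT IR. Monocyte markers summed to 318 to 342 CPM and 196 to 232 CPM, with 4 of 5 lower, Plac8 (log2 −4.86) and F13a1 (−1.94) first, and Vcan (0.43) higher. Macrophage markers summed to 4009 to 4138 CPM and 3692 to 4133 CPM, with 4 of 7 lower, C1qa (−0.44) and C1qc (−0.29) first. Dendritic cell markers summed to 44.6 to 46.6 CPM and 68.3 to 71.0 CPM, and 2 of 3 tested, Zbtb46 (0.71) and Flt3 (0.50), were higher. All 5 erythroid markers were higher. The part of these cells in the result was not tested.

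**Figure D3:**
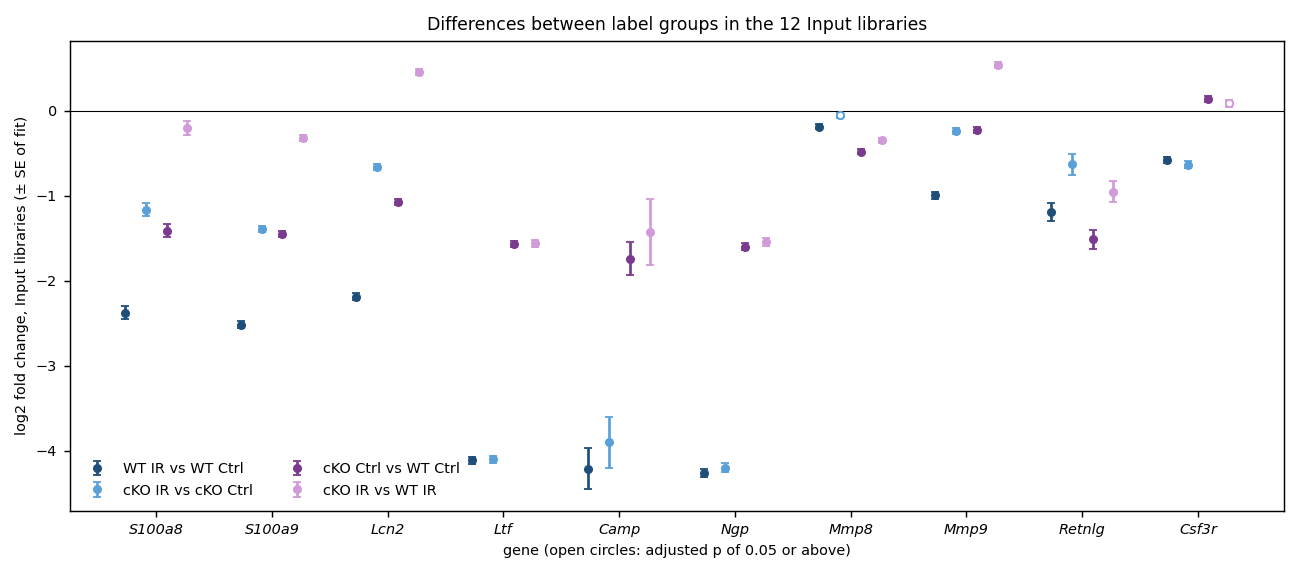
Log2 fold changes of the 10 genes in the 12 Inputs for 4 pairs of label groups, with the standard error of the edgeR fit as bars and open circles where the adjusted p was 0.05 or above. Ltf, Camp and Ngp lie near −4 for irradiation in both genotypes, whereas Lcn2 lies at −2.19 in WT and −0.66 in cKO.

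In the Inputs labelled cKO, 9 of the 10 genes were lower after irradiation, where 23.8% of all genes tested were called lower and 21.8% higher. The median log2 difference over the 10 genes was −0.91 (0.01 over all genes). Mmp8 was the exception, at 258, 267 and 258 CPM in cKO Ctrl and 261, 249.5 and 251.5 CPM in cKO IR, with overlapping libraries (log2 −0.05, SE 0.03, edgeR adjusted p 0.18).

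Ltf went from 253.5, 261.5 and 260.5 CPM to 16.1, 14.6 and 14.8 CPM, a 17.2-fold fall (log2 −4.10, SE 0.04, edgeR adjusted p 3.4e-23). Ngp fell 18.4-fold (log2 −4.20, SE 0.05, edgeR adjusted p 1.7e-22) and Camp 14.9-fold (log2 −3.90, SE 0.30, edgeR adjusted p 1.8e-09), the latter from 160 to 198 counts to 4 to 15 counts. The same 3 granule genes thus had the largest falls in both genotypes. S100a9 went from 379, 386 and 377 CPM to 143, 150.1 and 146 CPM (log2 −1.39, SE 0.04, edgeR adjusted p 8.1e-16), and S100a8 from 147 to 161 CPM to 62.2 to 75.3 CPM (log2 −1.17, SE 0.08, edgeR adjusted p 2.2e-10). Lcn2 fell 1.58-fold, Csf3r 1.55-fold, Retnlg 1.55-fold and Mmp9 1.18-fold, all called.

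Of the other secondary and tertiary granule genes 6 of 9 were lower and 1 higher (median −0.84), Cd177 (log2 −2.39) and Olfm4 (−1.95) first. Of the other late neutrophil genes 11 of 18 were lower and 6 higher (median −1.11), Hdc (−2.73) and Ly6g (−2.27) first. The 6 that rose were Clec4d (0.64), Slpi (0.60), Wfdc21 (0.33), Fpr1 (0.27), Fpr2 (0.27) and Trem1 (0.22). The summed level of these late genes was 874 to 908 CPM in cKO Ctrl and higher, 1161 to 1191 CPM, in cKO IR. That of the other secondary and tertiary granule genes went from 5005 to 5054 CPM to 4567 to 4574 CPM. All 7 primary granule genes were lower (median −5.39), their sum going from 22.8 to 25.2 CPM to 0.363 to 0.470 CPM. Mpo, myeloperoxidase, had 2586 counts in cKO Ctrl and 11 in cKO IR. Elane had 648 counts and 3, a 194-fold ratio with a 95% counting interval of 66.2 to 944 (exact, counting error only). Cebpe (−0.53) and Runx1 (−0.48) led the 4 of 7 transcription factors that were lower, and Timp1 (0.89) and Tlr4 (−0.16) led the 3 of 7 tested partners that were called. Eosinophil markers summed to 10.7 to 13.3 CPM and 2.68 to 3.84 CPM, and monocyte markers to 378 to 398 CPM and 253 to 260.2 CPM. Macrophage markers summed to 4207 to 4333 CPM and 4249 to 4385 CPM, with 5 of 7 lower (Mrc1, −0.46, first) and 2 higher (Trem2, 0.28, and Apoe, 0.13). Dendritic cell markers summed to 42.0 to 42.8 CPM and 58.0 to 59.9 CPM, with Zbtb46 (0.55) higher of 3 tested. The part of these cells was not tested.

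The difference of the irradiation effects, cKO less WT, was itself tested (interaction) and was called higher for 6 of the 10 genes. Over all genes 15.0% were called higher and 15.2% lower. The 6 were Lcn2 (1.53, SE 0.05, edgeR adjusted p 5.1e-13), S100a8 (1.21, SE 0.11, edgeR adjusted p 1.1e-07), S100a9 (1.13, SE 0.05, edgeR adjusted p 1.6e-11), Mmp9 (0.76, SE 0.05, edgeR adjusted p 4.5e-09), Retnlg (0.56, SE 0.16, edgeR adjusted p 0.013) and Mmp8 (0.14, SE 0.04, edgeR adjusted p 0.025), all on the log2 scale. These genes fell less in the Inputs labelled cKO than in WT. The call of Mmp8 was lost without WT Ctrl replicate 3, WT IR replicate 3, cKO Ctrl replicate 1, cKO Ctrl replicate 3 or cKO IR replicate 1 (0.11 to 0.13).

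No difference was called for Ltf (0.01, SE 0.06, edgeR adjusted p 0.90), Ngp (0.06, SE 0.06, edgeR adjusted p 0.52), Camp (0.31, SE 0.47, edgeR adjusted p 0.68) or Csf3r (−0.05, SE 0.05, edgeR adjusted p 0.50). For Ltf and Ngp the standard error was small against falls of over 4 on the log2 scale, while that of Camp leaves a wide range. Of the other late neutrophil genes 12 of 18 were called higher, and of the other granule genes 5 of 9 were called higher and 1 lower.

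In unirradiated tumours 9 of the 10 genes were lower in the Inputs labelled cKO than in WT, and 1 was higher. Of all genes 7.61% were called lower and 8.05% higher, and the median difference was −1.43 over the 10 genes against 0.00 over all. This contrast shares the WT Ctrl libraries with that of irradiation in WT. The secondary granule genes and calgranulins were lower by similar amounts: Ltf 2.97-fold, Ngp 3.04-fold, Camp 3.34-fold, S100a9 2.73-fold, S100a8 2.66-fold and Lcn2 2.103-fold. Retnlg was 2.85-fold lower, Mmp8 1.40-fold and Mmp9 1.17-fold.

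Csf3r was at 130.5, 126 and 132 CPM in cKO Ctrl against 116, 117 and 116 CPM in WT Ctrl, which did not overlap (log2 0.14, SE 0.04, edgeR adjusted p 0.013). Its call was lost without WT Ctrl replicate 1, WT Ctrl replicate 3, cKO Ctrl replicate 1 or cKO Ctrl replicate 3 (0.13 to 0.14). Of the other secondary and tertiary granule genes 6 of 9 were lower and 3 higher (Olfm4, −1.53, and Pglyrp1, −1.44, first), and of the other late neutrophil genes 12 of 18 were lower and 3 higher (Hdc, −1.55, and G0s2, −1.52, first). Summed, the former list was at 5005 to 5054 CPM in cKO Ctrl against 4962 to 5030 CPM in WT Ctrl. The latter was at 874 to 908 CPM against 825 to 865 CPM. All 7 primary granule genes were lower, Prss57 (−2.80) and Ctsg (−1.99) first. Cebpe (−0.95) and Cebpd (0.37) led the 4 of 7 transcription factors that were called. Eosinophil markers summed to 10.7 to 13.3 CPM against 22.7 to 24.03 CPM, macrophage markers to 4207 to 4333 CPM against 4009 to 4138 CPM and monocyte markers to 378 to 398 CPM against 318 to 342 CPM. The part of these cells was not tested.

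In irradiated tumours 7 genes were lower and 2 higher in the Inputs labelled cKO, where 23.8% of all genes were called lower and 23.9% higher. Ltf (2.95-fold), Ngp (2.91-fold) and Camp (2.69-fold) were lower by nearly the same factor as in Ctrl. Retnlg was 1.94-fold lower, Mmp8 1.27-fold and S100a9 1.25-fold. The call of Camp, with 43, 19 and 20 counts against 4, 15 and 13, was lost in a fit of the 6 libraries alone (log2 −1.43, edgeR adjusted p 0.055). S100a8 (log2 −0.20, SE 0.08, edgeR adjusted p 0.040) had overlapping libraries. Its call was lost with DESeq2 (−0.21, adjusted p 0.096), with the 6 libraries alone (−0.20, edgeR adjusted p 0.085), and without WT Ctrl replicate 1, cKO Ctrl replicate 1, WT IR replicate 2, WT IR replicate 3, cKO IR replicate 1 or cKO IR replicate 3 (−0.21 to −0.13).

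Lcn2 and Mmp9 went the other way. Lcn2 was at 152, 144 and 152 CPM in cKO IR and 97.3, 109 and 107.5 CPM in WT IR (log2 0.46, SE 0.04, edgeR adjusted p 6.4e-09). Mmp9 was at 172, 176 and 185 CPM against 122, 114 and 117.5 CPM (log2 0.54, SE 0.04, edgeR adjusted p 2.5e-10). Both genes were lower in cKO than in WT before irradiation. Csf3r did not pass (log2 0.09, SE 0.04, edgeR adjusted p 0.072), although it did without WT IR replicate 1 (0.12, edgeR adjusted p 0.0077). All 5 erythroid markers were lower, macrophage markers were higher for 5 of 7 with C1qa (0.83) first, and monocyte markers were higher for 4 of 5 with Plac8 (1.27) first. The part of these cells was not tested.

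Profiles were compared by Pearson's r of log2(CPM + 0.5) over the 12 Inputs, among genes with a mean of at least 1 CPM. As the 12 libraries fall into 4 groups, these values describe the order of the groups and nothing more. Nearest to S100a9 were Pglyrp1 (r = 0.997), Mogat2 (0.994), Ncam1 (0.993), Chil1 (0.993) and Itgb2l (0.992). Nearest to Ltf were E2f2 (0.992), 6430548M08Rik (0.992), Cd177 (0.990), Bin2 (0.990) and A430078G23Rik (0.989). Nearest to Csf3r, whose level followed treatment more than genotype, were Ptpro (0.992), Tnfrsf14 (0.990), Lrmp (0.988), Ppp1r21 (0.988) and Hyou1 (0.986). Pglyrp1, Itgb2l and Cd177 are neutrophil granule or surface genes.

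Mmp8 (positions 7558456 to 7568485, plus strand), Camp (109847379 to 109849617, minus strand), Ngp (110419747 to 110423012, plus strand) and Ltf (111019271 to 111042767, plus strand) all lie on chromosome 9 of GRCm38. Camp, Ngp and Ltf share a stretch of 1.20 Mb. Of the 23 other genes tested there, 3 were lower and 3 higher in WT IR against WT Ctrl (median log2 0.00, lowest Pth1r at −0.45). In cKO 9 of the 23 were lower, where 23.8% of all genes were, and 1 was higher (median −0.22, lowest Gm42433 at −2.80). Lcn2 (chromosome 2, 32384633 to 32388252, minus strand) and Mmp9 (chromosome 2, 164940780 to 164955850, plus strand), Csf3r (chromosome 4, 126024550 to 126044440, plus strand) and Retnlg (chromosome 16, 48872621 to 48874496, plus strand) lie elsewhere.

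C/EBP factors, among them C/EBPε, are known to act on granule gene promoters. A C/EBP-like motif, TTGCNNAA on either strand, was searched in the RefSeq promoters (250 bases before to 50 bases after the start, GRCm38.p6) that matched 9 of the 10 genes. It was present in 6 of 9 promoters, and in 10.8% of 32851 promoters in the same table. The promoters of the 3 genes with the largest falls and of Mmp8, which changed least, are shown in the direction of transcription with the motif in capitals.
Ltf, chr9:111019042-111019341, plus strand: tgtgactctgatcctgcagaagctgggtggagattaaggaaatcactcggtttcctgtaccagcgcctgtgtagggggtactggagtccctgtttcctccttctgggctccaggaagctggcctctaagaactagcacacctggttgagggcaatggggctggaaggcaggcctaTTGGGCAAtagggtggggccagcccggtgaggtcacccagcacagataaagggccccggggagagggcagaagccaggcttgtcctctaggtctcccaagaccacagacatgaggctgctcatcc
Ngp, chr9:110419558-110419857, plus strand: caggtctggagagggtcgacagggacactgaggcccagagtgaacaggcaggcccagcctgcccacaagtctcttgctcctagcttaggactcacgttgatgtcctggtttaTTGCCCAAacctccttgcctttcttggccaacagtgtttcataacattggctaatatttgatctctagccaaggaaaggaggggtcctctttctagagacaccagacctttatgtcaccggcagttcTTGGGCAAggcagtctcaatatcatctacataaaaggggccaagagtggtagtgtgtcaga
Camp, chr9:109849407-109849706, minus strand: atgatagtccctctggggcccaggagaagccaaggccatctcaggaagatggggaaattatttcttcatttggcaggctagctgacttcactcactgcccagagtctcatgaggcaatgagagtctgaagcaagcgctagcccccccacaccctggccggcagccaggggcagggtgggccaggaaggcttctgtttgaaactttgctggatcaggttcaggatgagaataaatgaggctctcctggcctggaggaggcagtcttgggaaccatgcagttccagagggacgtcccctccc
Mmp8, chr9:7558179-7558478, plus strand: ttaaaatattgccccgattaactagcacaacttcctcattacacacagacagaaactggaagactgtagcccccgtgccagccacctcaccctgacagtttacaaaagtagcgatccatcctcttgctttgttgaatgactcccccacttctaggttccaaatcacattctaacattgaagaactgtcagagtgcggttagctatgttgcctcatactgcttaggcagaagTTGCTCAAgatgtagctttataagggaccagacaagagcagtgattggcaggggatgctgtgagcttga

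The motif began 75 bases before the start in Ltf, 138 and 11 bases before it in Ngp, 19 in Mmp8, 216 in Lcn2, 236 in S100a9 and 246 in Retnlg. It was not in these windows of Camp, S100a8 and Csf3r. Genes with and without a match therefore occurred both among those that fell most (Ltf, Ngp and Camp) and among those that moved less (Mmp8 and Csf3r).

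For most members the IP levels differed less between groups than the Input levels. The sum of the IP levels was 1016 ± 11.0 CPM in WT Ctrl and 1093 ± 13.3 CPM in cKO Ctrl. It was 1018 ± 10.1 CPM and 912 ± 31.2 CPM in the irradiated groups labelled WT and cKO (SD, n = 3 each). Ltf spanned 50.2-fold between the highest and the lowest Input group mean but 1.73-fold between IP group means. The same spans were 54.9-fold and 1.86-fold for Ngp, 49.1-fold and 2.75-fold for Camp, and 7.05-fold and 1.46-fold for S100a9. Mmp8 (1.42-fold and 1.91-fold) and Csf3r (1.70-fold and 2.01-fold) had the wider span in the IPs.

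The IP levels of Ltf were 78.1, 84.0 and 78.5 CPM in WT Ctrl and 84.8, 90.3 and 86.1 CPM in cKO Ctrl. With irradiation they were 68.4, 71.9 and 61.8 CPM under the WT label and 50.02, 51.6 and 49.4 CPM under the cKO label. The irradiated libraries were below the controls of either genotype label, by far less than in the Inputs. For S100a9 they were 376, 396.5 and 372 CPM, 396, 385 and 399.6 CPM, 264, 277 and 268 CPM, and 270.2, 295 and 308 CPM in the same order. Again both irradiated groups were below both control groups.

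With the IP groups taken by label, 5 of the 10 genes were lower and 3 higher after irradiation under the WT label, where 29.3% of the 16038 genes tested in the IPs were called lower and 28.6% higher. Those lower were Camp (log2 −1.18, SE 0.41), Ngp (−0.87, SE 0.04), S100a9 (−0.47, SE 0.03), Ltf (−0.22, SE 0.04) and S100a8 (−0.17, SE 0.04). Those higher were Csf3r (1.04, SE 0.05), Mmp8 (0.96, SE 0.03) and Mmp9 (0.62, SE 0.04). With the irradiated IP group of the other label, these 8 kept their direction and their call (Camp −1.43, Ngp −0.82, Ltf −0.65, S100a9 −0.37, S100a8 −0.23, Mmp8 0.495, Mmp9 0.48 and Csf3r 0.48), Lcn2 was called too (−0.21) and Retnlg changed sign without a call in either (0.47 and −0.29). The call of Camp by label was lost without WT Ctrl replicate 1 or WT IR replicate 3 (−0.78 in the latter), and Lcn2 was called without WT IR replicate 3 (−0.12).

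In the group labelled cKO, 7 genes were lower and 3 higher after irradiation (27.5% and 26.7% of all genes). Ltf (−0.73), Ngp (−0.64), S100a9 (−0.37) and S100a8 (−0.36) were lower, and Mmp9 (0.49), Csf3r (0.29) and Mmp8 (0.18) higher. With the IP group of the other label, Ltf was at −0.30, Ngp at −0.68, S100a9 at −0.48, S100a8 at −0.30, Csf3r at 0.85, Mmp8 at 0.65 and Mmp9 at 0.63, all still called. Lcn2 (−0.10) and Retnlg (−1.05) were called by label and not with the other group (0.03 and −0.29), and Camp stayed called (−1.22 and −0.96). By label, Camp lost its call without cKO Ctrl replicate 2 or cKO IR replicate 3 (−1.07 and −0.90) and Retnlg without cKO Ctrl replicate 1 or cKO IR replicate 3 (−0.84 and −0.80). Lcn2 lost it with RLE size factors or DESeq2 and without WT Ctrl replicate 2, WT IR replicate 1, any cKO Ctrl replicate but 2, or any cKO IR replicate but 2 (−0.10 to −0.07).

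Between the unirradiated IP groups, whose Lyz2 levels matched their labels, 2 genes were lower and 3 higher in cKO (17.1% and 16.2% of all genes). Mmp8 (0.32, SE 0.03), Csf3r (0.19, SE 0.05) and S100a8 (0.13, SE 0.04) were higher, and Ngp (−0.19, SE 0.04) and Lcn2 (−0.11, SE 0.04) lower. The call of Csf3r was lost without WT Ctrl replicate 1 or cKO Ctrl replicate 2 (0.15 each), and that of Lcn2 with RLE size factors or DESeq2 (−0.09 each), without WT Ctrl replicate 3 (−0.08) and without any cKO Ctrl replicate (−0.10 each). Ltf became called without cKO Ctrl replicate 1 (0.12) and Retnlg without WT Ctrl replicate 2 (1.34). S100a9 (0.00, SE 0.03, edgeR adjusted p 0.97) and Ltf (0.08, SE 0.04, edgeR adjusted p 0.18) did not pass, whereas their Input levels were 2.73- and 2.97-fold lower in the Inputs labelled cKO. Between the irradiated IP groups, 5 genes were lower in the group labelled cKO and 1 higher (25.7% and 17.7% of all genes), with Csf3r (−0.55), Mmp8 (−0.47) and Ltf (−0.42) first. S100a9 (0.11) and Lcn2 (−0.13) lost their calls without some single libraries (0.06 to 0.09 and −0.11 to −0.09), and S100a8 gained one without cKO IR replicate 2 (−0.10). Exchanging the labels would turn each of these signs.

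The log2 ratio of IP to Input, from a fit of all 24 libraries and 17373 genes, compares a gene's place in the IP with its place in the Input and is not a stoichiometry of m6A. In WT Ctrl all 10 genes were lower in the IP than in the Input, where 37.5% of all genes were lower and 38.1% higher. Retnlg was the lowest at −5.12 (SE 0.22), with 16 to 51 counts in the IP libraries (−5.72 without WT Ctrl IP replicate 2), and Ltf (−3.46, SE 0.04), Camp (−3.41, SE 0.29), Ngp (−3.27, SE 0.04) and Lcn2 (−3.07, SE 0.04) followed. Mmp8 was the highest at −1.49 (SE 0.03).

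In cKO Ctrl 9 of 10 were lower in the IP by this fit (36.0% of all genes, with 37.8% higher). S100a8 did not pass (0.01, SE 0.06, edgeR adjusted p 0.87). The fit scales libraries by TMM and not by total gene counts, so small ratios can differ from those of the CPM. S100a9, called lower, was at 380.9 CPM in the Input and 393.6 CPM in the IP of cKO Ctrl, with overlapping libraries. For S100a8 these levels were 154.2 and 185.7 CPM, without overlap. The ratio was higher in cKO Ctrl than in WT Ctrl for 9 of the 10 genes, where 10.1% of all genes were called higher and 12.5% lower. Ltf differed by 1.64 (SE 0.06, edgeR adjusted p 3.5e-20), S100a8 by 1.53 (SE 0.09, edgeR adjusted p 7.1e-15), S100a9 by 1.44 (SE 0.06, edgeR adjusted p 8.6e-20) and Ngp by 1.41 (SE 0.05, edgeR adjusted p 5.8e-20). These differences were close in size to the falls of the same genes in the Inputs, and the IP levels hardly differed. Csf3r, the gene that was not lower in the Inputs labelled cKO, did not pass (0.04, SE 0.06, edgeR adjusted p 0.73).

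In the irradiated groups the ratios of some genes were above 0. By label, WT IR had 4 genes higher in the IP (37.0% of all genes) and 5 lower (36.5%), and cKO IR had 4 higher (36.9%) and 5 lower (36.9%). In both groups those higher were S100a8, S100a9, Ltf and Ngp. Ngp stood at 0.09 (SE 0.04, edgeR adjusted p 0.047) in WT IR and at 1.71 (SE 0.04, edgeR adjusted p 1.6e-26) under the cKO label. Camp was not called in either, but was in cKO IR without IP replicate 3 (1.11). By label, S100a8 stood at 0.66 and 0.84 and S100a9 at 0.37 and 0.83 in the groups labelled WT and cKO, and against the Input group of the other label S100a8 stood at 0.86 and 0.63 and S100a9 at 0.69 and 0.50. Against the Input group of the other label, Ngp stood at 1.63 and 0.17 and Ltf at 1.96 and 0.01, compared with 0.40 and 1.57 by label. The Ngp value in WT IR by label lost its call with RLE size factors or DESeq2 (0.04) and without most single libraries (0.07 to 0.09), and that of Ltf in cKO IR was not called against the other Input group. In both groups Retnlg (−3.49 and −3.26), Lcn2 (−0.995 and −1.54), Csf3r (−0.93 and −1.54), Mmp9 (−0.54 and −1.18) and Mmp8 (−0.37 and −0.46) were lower in the IP by label. Against the other Input group these were at −2.54 and −4.21, −1.45 and −1.09, −1.02 and −1.45, −1.07 and −0.65, and −0.02 and −0.80 in the same order, all called but Mmp8 in WT IR. Camp was at −0.41 and 0.81 by label, without a call, and at 1.02 (edgeR adjusted p 0.043) and −0.62 (not called) against the other Input group.

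**Figure D4:**
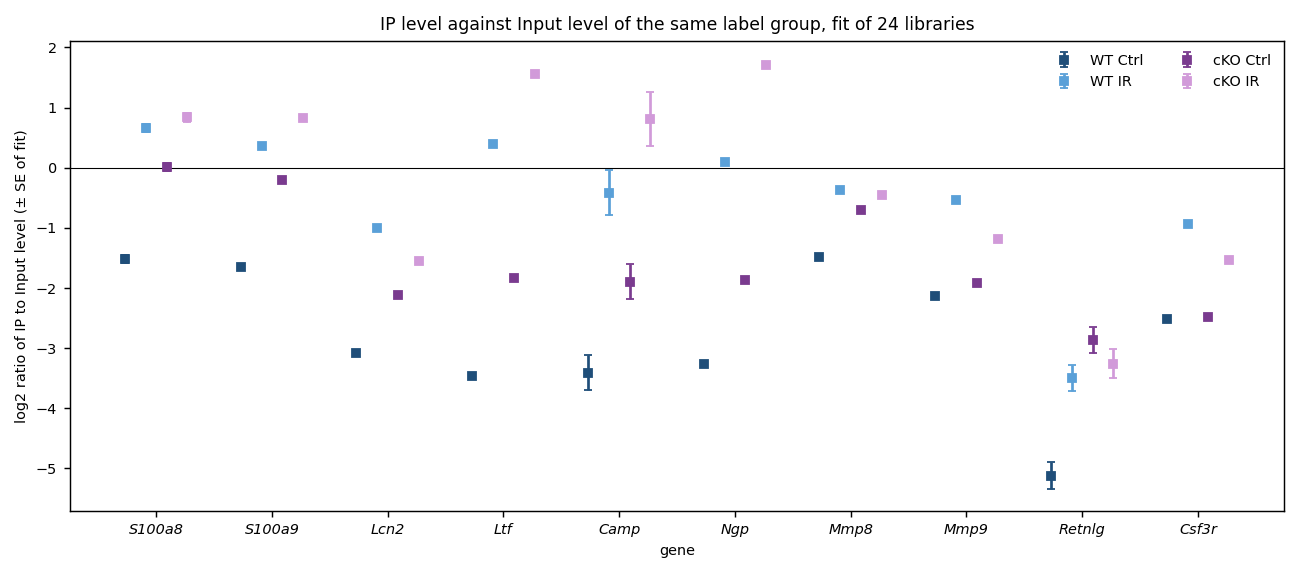
Log2 ratio of IP to Input level in each label group for the 10 genes, with the standard error of the fit as bars. In WT Ctrl every gene lies at or below −1.49, and in the irradiated groups Ltf reaches 0.40 and 1.57.

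The difference of this ratio between irradiated and control groups was added after these values were seen. By label, all 10 genes had a higher ratio after irradiation in WT (21.7% of all genes were called higher and 19.8% lower), from 1.12 for Mmp8 to 3.86 for Ltf, and 9 of 10 in cKO IR against cKO Ctrl (23.6% and 21.8%), from 0.25 for Mmp8 to 3.57 for Ngp. With the IP group of the other label, 9 and 9 were called, with Ltf at 3.47 and 3.78, Ngp at 3.44 and 3.495 and Camp at 2.79 and 2.91 in WT and cKO. The same values were 2.15 and 0.85 for S100a8, 2.15 and 0.90 for S100a9, 1.99 and 0.67 for Lcn2, 0.69 and 0.68 for Mmp8, 1.48 and 0.85 for Mmp9 and 1.07 and 1.46 for Csf3r. Retnlg was at 0.91 (edgeR adjusted p 0.054) and 0.33 there, not called. The granule genes with the largest Input falls had the largest differences under either assignment of the IP groups. Each difference contains the Input fall of the gene with its sign turned, and exchanging the IP groups leaves that part unchanged. This order is therefore no result separate from the Input falls.

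The deposited peak lists mark regions where the authors' caller found more IP than control coverage. A consensus peak here was one found in all 3 libraries of a group on the same strand. Of the 10 genes, 4 had a consensus peak in at least 1 group, against 35.4% of the 16032 genes examined. None had one in WT Ctrl (30.0% of genes) or cKO Ctrl (28.0%), while 2 had one under the label WT IR (25.3%) and 3 under the label cKO IR (22.6%). These were S100a8 and S100a9 in the former, and S100a9, Ltf and Ngp in the latter. No peak was listed in any of the 12 libraries over Lcn2, Camp, Mmp8, Mmp9, Retnlg or Csf3r, and the unirradiated lists held a single peak over the 10 genes, on S100a9 in cKO Ctrl replicate 2 with a fold of 1.22.

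Ltf had 6 consensus peaks in the group labelled cKO IR, between merged exons 8 and 17 of 18, with summits in coding exons, in introns or at their border. The highest fold, 13.4, belonged to a peak at chr9:111040200-111040431 whose summit lay at the border of exon 17. The caller's fold at this place was 11.5 and 10.2 in the other libraries of the group, and 5.98 and 4.85 in replicates 2 and 3 of the group labelled WT IR. Ngp had consensus peaks at chr9:110420686-110420846 (fold up to 5.22) and chr9:110422136-110422916 (fold up to 3.08). The consensus peaks of S100a8 (chr3:90669751-90669922, up to 2.11) and S100a9 (chr3:90692803-90693039, up to 2.03) in the group labelled WT IR had their summits in the coding sequence of merged exon 3, the last exon of each gene. Which Input was the control of which IP library is not given in the sources used here, and the Input level of Ltf and Ngp was lowest in cKO IR (15.2 and 12.8 CPM). The part of the Input level in these folds was not tested.

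**Figure D5:**
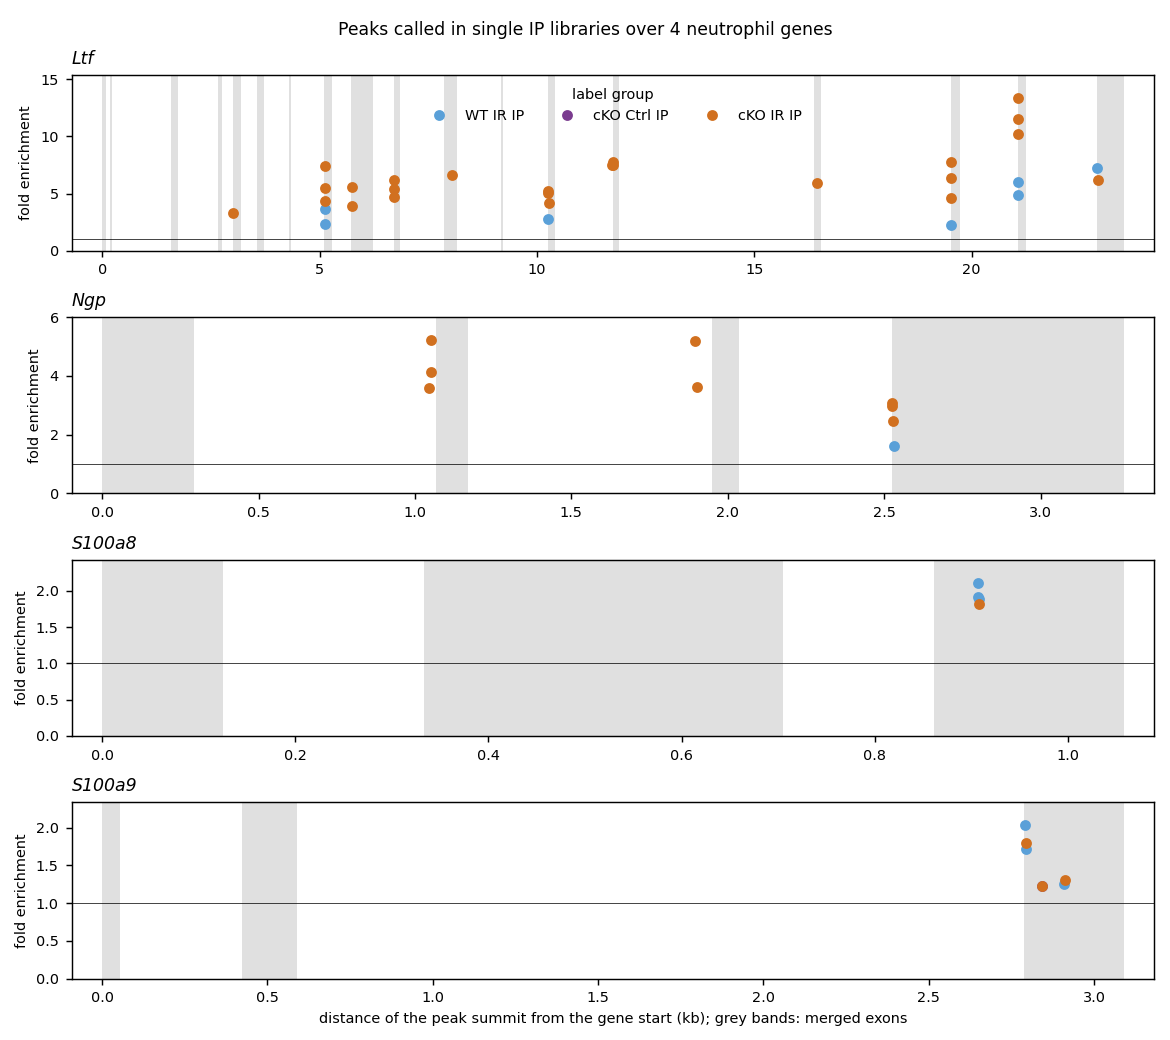
Fold enrichment of each peak called in a single IP library over Ltf, Ngp, S100a8 and S100a9, against the distance of its summit from the gene start (kb), with merged exons as grey bands. Peaks come almost only from the irradiated groups, and those of Ltf reach 13.4-fold in the group labelled cKO IR.

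The consensus m6A motif is DRACH, of which GGAC is the common core. The 101 bases around the summit of the highest peak of each of the 4 genes are given on the gene's strand (GRCm38), with GGAC in capitals.
Ltf, chr9:111040276-111040376, plus strand: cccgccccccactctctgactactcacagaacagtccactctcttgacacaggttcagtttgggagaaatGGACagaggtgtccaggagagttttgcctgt
Ngp, chr9:110420748-110420848, plus strand: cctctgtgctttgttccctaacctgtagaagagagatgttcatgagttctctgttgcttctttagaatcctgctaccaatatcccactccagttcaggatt
S100a8, chr3:90669835-90669935, plus strand: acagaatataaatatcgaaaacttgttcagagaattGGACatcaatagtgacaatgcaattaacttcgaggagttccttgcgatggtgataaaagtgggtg
S100a9, chr3:90692880-90692980, minus strand: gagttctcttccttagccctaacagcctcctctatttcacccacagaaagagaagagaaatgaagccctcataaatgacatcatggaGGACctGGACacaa

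GGAC on the gene's strand occurred once in the windows of Ltf and S100a8, in 2 places in that of S100a9 and not in that of Ngp. Over all consensus peaks, 35.1 to 36.6% of such windows held GGAC in the 4 groups, and 11.2 to 12.1% held GGACT, which none of the 4 windows did. Part of each window is intron: 49 of the 101 bases were exonic in Ltf, 36 in Ngp, 97 in S100a8 and 55 in S100a9.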

How the data were processed

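The authors deposited raw gene counts of each library, obtained with Trimmomatic 0.39, HISAT (mm10, strand-specific) and HTSeq on GENCODE vM19. The deposited peak lists, called by the authors per library with MACS2, hold a fold enrichment (a ratio), −log10 p-value and q-value, and a score. Symbols, exons and positions came from GENCODE vM21 (GRCm38), and promoters from RefSeq. No member overlapped another annotated gene.

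Counts were tested with edgeR 4.0.16 (quasi-likelihood, TMM, at least 10 counts in at least 3 libraries) in R 4.3.3, in fits of 12 Inputs, 12 IPs and all 24 libraries, with Benjamini-Hochberg adjustment over all genes of a contrast. The fits were checked on simulated counts. CPM are relative to total gene counts, without lines that name no gene. DESeq2 1.42.0, RLE size factors, no filter, a replicate block, smaller fits and fits without single libraries were alternatives.

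The members, gene lists and tests were chosen with earlier results of these data known. Named were all 10 members, the 2 most changed called genes of a list, the 5 nearest profiles, and Ythdf2 and Lyz2. Cxcr2, Ly6g and the further list genes named belong to these lists. Itgam was named after its values were seen.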

Additional observations from a re-analysis of the deposited data

Results flagged for a closer look

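The following differences between groups in the size of an effect passed the edgeR test of the difference itself (adjusted p under 0.05). All are on the log2 scale. Each difference of an IP to Input ratio contains the Input difference of the gene with its sign turned. These are therefore not results independent of the Input differences.

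The irradiation effect in the Inputs was less negative in cKO than in WT for Lcn2 (1.53), S100a8 (1.21), S100a9 (1.13), Mmp9 (0.76), Retnlg (0.56) and Mmp8 (0.14). The ratio of IP to Input was higher in cKO Ctrl than in WT Ctrl for Retnlg (2.26, and 1.94 to 2.85 without single libraries, highest without WT Ctrl IP replicate 2), Ltf (1.64), S100a8 (1.53), Camp (1.52), S100a9 (1.44), Ngp (1.41), Lcn2 (0.95), Mmp8 (0.79) and Mmp9 (0.21).

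By label, the ratio of IP to Input was higher after irradiation in WT for Ltf (3.86), Ngp (3.36), Camp (2.998), S100a8 (2.18), Lcn2 (2.08), S100a9 (2.02), Retnlg (1.63, and 2.23 without WT Ctrl IP replicate 2), Mmp9 (1.59), Csf3r (1.59) and Mmp8 (1.12). In cKO IR against cKO Ctrl it was higher for Ngp (3.57), Ltf (3.39), Camp (2.70), S100a9 (1.04), Csf3r (0.94), S100a8 (0.82), Mmp9 (0.74), Lcn2 (0.57) and Mmp8 (0.25). The irradiated IP libraries in these contrasts have a Lyz2 level that goes against their labels, and the values with the other IP group stand in the text above.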

How the results depend on the processing

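Of 3570 member values recomputed under an alternative, 3454 kept their direction and their side of the threshold, 75 lost and 7 gained a call, and 34 changed sign. Many alternatives left out a library of a group outside the contrast, which bears on a value only through the shared fit. The share that was kept is therefore a lenient measure. Of 363 counts of called members, 361 stayed within 1.5 times. Members with a consensus peak went from 4 to 1 at a fold of at least 4, and called members in the IPs of cKO Ctrl against WT Ctrl ranged from 3 to 6 when single libraries were left out. For Input, cKO Ctrl vs WT Ctrl, all genes called rose from 2520 to 3870 with the 6 libraries alone. Against the Input group of the other label Camp stood at 1.02 (WT IR, adjusted p 0.043, from −0.41) and −0.62 (cKO IR). With the other irradiated IP group, Retnlg stood at −0.29 (WT IR vs WT Ctrl) and 0.33 (ratio, cKO), and Lcn2 at 0.027 (cKO IR vs cKO Ctrl), a value that was called by label. With RLE size factors and DESeq2, Mmp9 in IP, cKO Ctrl vs WT Ctrl, was at 0.01 in both, and S100a8, IP over Input, cKO Ctrl at −0.028 and −0.027 (−0.021 with the 12 unirradiated libraries). The cause was not tested. Without single libraries the interaction ranged from −0.037 to 0.04 for Ltf and from −0.011 to 0.098 for Ngp. The IP difference of cKO Ctrl ranged from −0.021 to 0.032 for S100a9 and −0.031 to 0.037 for Mmp9, and that of cKO IR vs WT IR from −0.65 to 0.058 for Camp. IP over Input ranged from −0.034 to 0.042 for S100a8 (cKO Ctrl), from −0.699 to 0.101 for Camp (WT IR) and from −0.006 to 0.086 for Csf3r (cKO Ctrl minus WT Ctrl). Deviations of same-numbered libraries from their group means correlated between −0.04 and 0.03, so no pairing by number was seen. Technical replicates of the same pool could be paired without such a correlation, so the check cannot exclude a pairing. With the replicate block, called members went from 5 to 4 (IP, cKO Ctrl vs WT Ctrl) and from 9 to 8 (IP over Input, WT IR), and the other counts did not move (10 in Input, WT IR vs WT Ctrl). With 4 to 43 counts per irradiated Input library, depth limits statements on Camp, and with 16 to 65 per IP library those on Retnlg.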
